A study of Rattus norvegicus with 9 samples.

Results

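The genes described here are 7 genes of the defence against oxidative stress, picked by their Ensembl rat identifiers out of the 30560 identifiers in the count tables. They are Nfe2l2 (ENSRNOG00000001548), Hmox1 (ENSRNOG00000014117), Nqo1 (ENSRNOG00000012772), Gclc (ENSRNOG00000006302), Sod1 (ENSRNOG00000002115), Sod2 (ENSRNOG00000019048) and Cat (ENSRNOG00000008364). None was missing from the tables, and all 7 passed the filter on low counts, which left 15879 genes to test. RNA was sequenced from 9 libraries of rat heart cells that the labels call cardiomyocytes and NRCM, an abbreviation in common use for neonatal rat cardiomyocytes that the labels do not spell out, 3 per group. The normoxia group was not made hypoxic. The H/R-DMSO group went through hypoxia and reoxygenation (H/R): 6 h at 0.1% oxygen in DMEM lacking glucose and pyruvate, and then 12 h of reoxygenation at 21% oxygen in the usual culture medium with the solvent DMSO. The H/R-AS8351 group had the same course, with 0.5 µM AS8351, named in the labels as an inhibitor of the histone demethylase Kdm5b, present during reoxygenation. Whether DMSO was also given in normoxia is not stated in the labels, nor are the animals' age in days and their strain. Nothing in the labels ties the 3 libraries of a group to separate cultures, so the p-values rest on a spread between samples that may be technical.

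Nfe2l2 (Nrf2) is a transcription factor that Keap1 holds at a low protein level in unstressed cells. Oxidants and electrophiles release it from Keap1, and it then binds antioxidant response elements in its target genes, so its activity is set largely at the protein level and its own RNA can stay level. Hmox1, Nqo1 and Gclc are textbook targets: heme oxygenase 1 breaks down heme, NAD(P)H quinone dehydrogenase 1 reduces quinones, and the catalytic subunit of glutamate-cysteine ligase carries out the rate-limiting step of glutathione synthesis. Sod1 in the cytosol and Sod2 in mitochondria turn superoxide into hydrogen peroxide, and catalase (Cat), mainly in peroxisomes, breaks hydrogen peroxide down. Heart muscle cells are rich in mitochondria, and the return of oxygen after its lack is known as a source of superoxide.

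The libraries held between 34442733 and 54888975 counts. Over the 7 genes a library had between 882 and 15652 counts per gene. Counting error alone thus came to between 0.799% and 3.37% of a value. The fitted coefficient of variation beyond counting error was between 3.3% and 3.85%. The fit draws each gene's value toward those of other genes, and the spread may be technical. Levels below are CPM, each gene's count scaled to a common library size by the TMM method. This sets each gene against the rest of its library's RNA. In such bulk RNA, fewer cells of a type and less RNA per cell cannot be told apart. The cell type was not checked against its markers, because the tables pair no identifier with a symbol. The 7 symbols come with the definition of the gene set.

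After H/R, 3 of the 7 genes rose (Nqo1, Sod1 and Cat), 3 fell (Hmox1, Sod2 and Gclc, the last of these not with total count scaling, where it turned to a log2 fold change of 0.021) and Nfe2l2 was not called. In this comparison 52.7% of all genes tested passed an adjusted p of 0.05 in edgeR's quasi-likelihood test, 27.5% higher and 25.2% lower, beside 6 of the 7 genes here. The libraries of the 2 groups did not overlap for these same 6 genes, and for 57.5% of all genes tested. Nqo1 and Hmox1 had the largest changes of the set: 1.58% of all genes tested changed more than Nqo1 in either direction, and 13.2% changed more than Hmox1. The median log2 fold change of the 7 genes was 0.078, beside 0.028 over all genes tested. The median size of the change, whatever its sign, was 0.29 for the 7 genes and 0.25 for all.

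**Figure D1:**
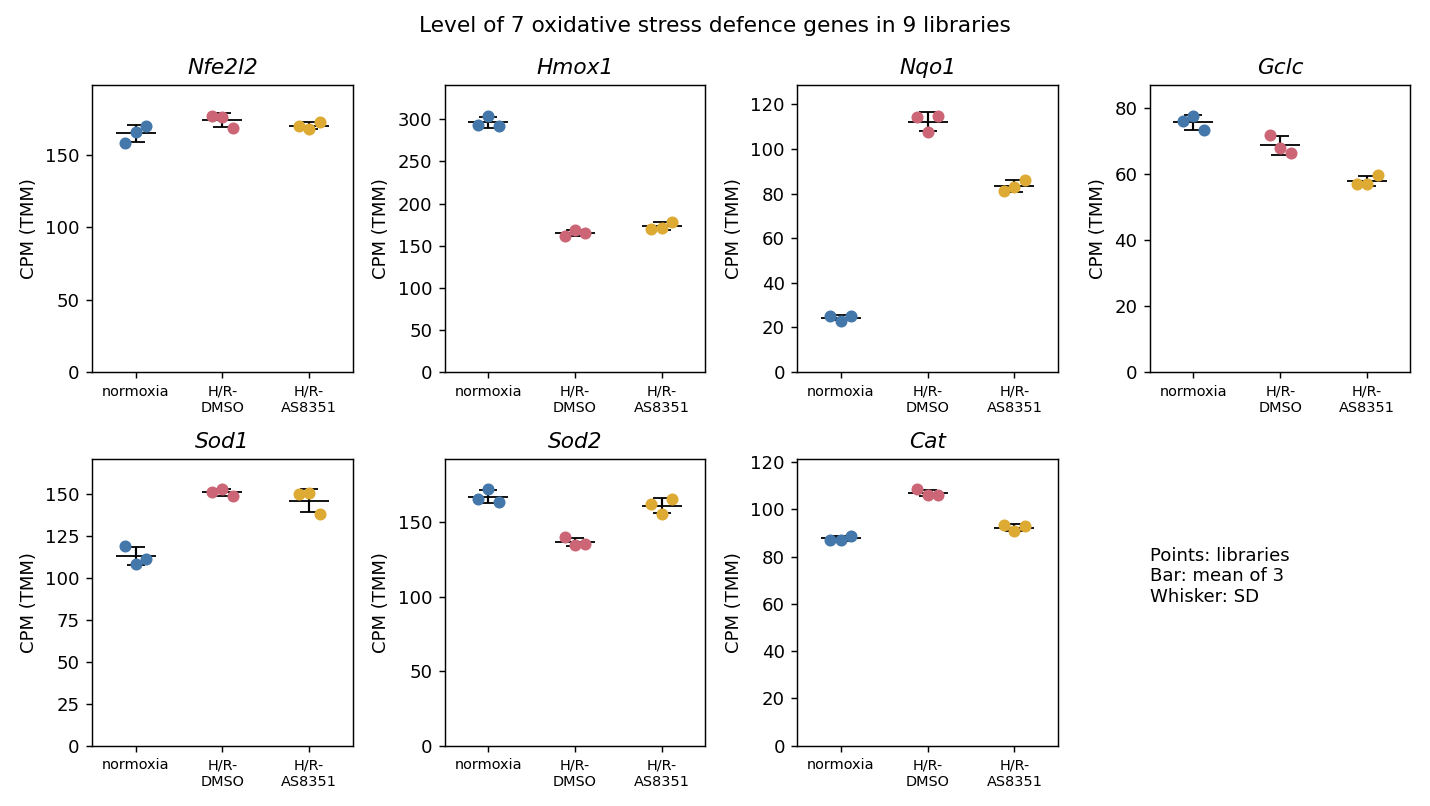
Level of each gene in CPM (vertical axis, from 0) in the 9 libraries, by group, with points for libraries, bars for means of 3 and whiskers for SD. Nqo1 went from 24.4 to 112 CPM after H/R, Hmox1 from 297 to 165 CPM, and Nfe2l2 stayed between 158 and 177 CPM in all libraries.

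Promoter sequence is shown for 2 pairs of genes whose RNA went apart after H/R: the Nfe2l2 targets Nqo1 and Gclc, and the dismutases Sod1 and Sod2. The fall of Gclc is not seen with total count scaling (log2 fold change 0.021). Each is the run of 250 bases before the gene's annotated start in RefSeq, 5′ to 3′ on the gene's own strand. The build is GRCr8, whereas the submitters' processing notes name rn6. Whether the identifiers in the counts belong to an rn6 annotation was not checked. Capitals mark matches to the motifs searched. Nqo1 lies at chr19:52220268-52220517 on the minus strand, Gclc at chr8:87510226-87510475 on the plus strand, Sod1 at chr11:42942573-42942822 on the plus strand and Sod2 at chr1:50050169-50050418 on the minus strand.
Nqo1: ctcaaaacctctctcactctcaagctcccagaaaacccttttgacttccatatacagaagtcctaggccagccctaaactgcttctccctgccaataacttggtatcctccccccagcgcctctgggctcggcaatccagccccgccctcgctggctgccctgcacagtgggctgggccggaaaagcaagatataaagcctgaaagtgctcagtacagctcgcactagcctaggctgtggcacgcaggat
Gclc: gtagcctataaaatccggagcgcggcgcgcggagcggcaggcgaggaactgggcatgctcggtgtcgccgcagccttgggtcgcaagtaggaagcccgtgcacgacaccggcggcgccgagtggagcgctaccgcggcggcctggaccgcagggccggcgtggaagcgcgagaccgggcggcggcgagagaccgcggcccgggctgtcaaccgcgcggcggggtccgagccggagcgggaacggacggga
Sod1: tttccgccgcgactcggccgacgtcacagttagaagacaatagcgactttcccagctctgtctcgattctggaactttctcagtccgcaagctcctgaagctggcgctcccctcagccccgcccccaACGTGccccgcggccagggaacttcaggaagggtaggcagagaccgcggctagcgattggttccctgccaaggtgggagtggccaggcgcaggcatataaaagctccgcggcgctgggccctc
Sod2: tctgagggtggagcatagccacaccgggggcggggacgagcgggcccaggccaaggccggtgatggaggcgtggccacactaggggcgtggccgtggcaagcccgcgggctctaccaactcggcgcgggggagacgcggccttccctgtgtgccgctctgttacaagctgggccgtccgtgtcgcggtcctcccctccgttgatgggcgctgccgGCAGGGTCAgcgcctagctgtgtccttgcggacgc

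Windows of this length were found for 6 of the 7 genes, Hmox1 being the other. The core of the antioxidant response element, searched as TGACNNNGC on both strands, matched in 1 of the 6, and 10.1% of the 33469 windows in the RefSeq table hold it. That match was in Sod2, on the strand opposite to the one printed, from 35 to 27 bases before the start. For the core of the hypoxia response element only the form ACGTG was searched. It matched in 1 of the 6, Sod1, and 16.6% of all windows hold it. The match was on the strand printed, from 123 to 119 bases before the start. The form GCGTG was not searched, and it can be read in the printed windows of Gclc and Sod2 and, on the opposite strand, of Nqo1. The AP-1 motif TGANTCA matched in 0 of the 6 and in 6.34% of all windows. These windows do not reach enhancers farther from the start, and a match is a stretch of letters, not a binding site shown by these data. The windows differed in base composition: Nqo1 had 56.4% G and C with 7 CpG pairs, and Gclc 74.8% with 43, beside a median of 51.2% and 5 over all windows. Sod1 had 63.2% with 21 pairs and Sod2 71.6% with 26.

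Nfe2l2 RNA differed little between the groups. Its level was 158, 166 and 170 CPM in the normoxia libraries, 177, 177 and 169 CPM after H/R with DMSO, and 171, 168 and 173 CPM with AS8351. The ranges of all 3 groups overlapped. After H/R its log2 fold change was 0.078 (SE 0.040, adjusted p = 0.0955 by edgeR), with a 95% interval of the change from -0.134% to 11.6%. With AS8351 against H/R-DMSO it was -0.032 (SE 0.040, adjusted p = 0.636), an interval from -7.44% to 3.43%. Against normoxia the H/R-AS8351 libraries differed by 0.047 (SE 0.040, adjusted p = 0.375), an interval from -2.28% to 9.19%. With single libraries left out none of these became called, and the values ranged from 0.049 to 0.10 after H/R, from -0.054 to -0.019 with AS8351 against H/R-DMSO and from 0.018 to 0.070 with AS8351 against normoxia. Scaled to the total count alone, Nfe2l2 was called higher than normoxia in both H/R groups, at 0.24 (adjusted p = 1.47e-06) for H/R-DMSO and 0.17 (adjusted p = 0.000379) for H/R-AS8351. With it the median over all genes went up by 0.16 and 0.12 in these comparisons.

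The 3 targets took different courses after H/R. Nqo1 stood at 25.3, 23.1 and 24.9 CPM in normoxia and at 114, 107 and 115 CPM in H/R-DMSO. Every H/R-DMSO library was far above every normoxia library, and the rise was 4.61-fold (log2 fold change 2.20, SE 0.052, adjusted p = 1.37e-32 by edgeR). Of the 4361 genes that rose, 123 including Nqo1 rose at least as much. Hmox1 went the other way, from 293, 304 and 293 CPM in normoxia to 162, 168 and 165 CPM in H/R-DMSO. The groups lay wholly apart, and the level fell by 44.4% (log2 fold change -0.85, SE 0.038, adjusted p = 1.73e-22). Gclc stood at 76.2, 77.7 and 73.3 CPM in normoxia and at 71.9, 67.9 and 66.5 CPM in H/R-DMSO, with the groups close but not overlapping. Gclc fell by 9.33% (log2 fold change -0.14, SE 0.048, adjusted p = 0.0126), but this call did not hold with each library left out: the adjusted p was 0.0671 without replicate 2 of normoxia and 0.0767 without replicate 3 of H/R-DMSO. Scaled to the total count alone, its log2 fold change was 0.021 (adjusted p = 0.727), with the sign turned.

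Count ratios within a library do not depend on how the libraries are scaled to each other. They compare a pair of genes between groups and do not say which gene has more RNA, since gene length enters them. The ratio of Hmox1 to Nqo1 counts was 11.6, 13.2 and 11.7 in normoxia, 1.42, 1.57 and 1.43 after H/R with DMSO, and 2.09, 2.06 and 2.07 with AS8351. The groups did not overlap in any of the 3 comparisons. The mean log2 ratio after H/R lay below that of normoxia, with a difference of -3.05, and that with AS8351 lay above H/R-DMSO, with a difference of 0.50. An exact two-sided permutation test gave p = 0.1 for each, the smallest value that 3 against 3 libraries can give, and 0.1 after Benjamini-Hochberg adjustment over the 9 ratio tests made (3 ratios, 3 comparisons).

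With AS8351, 4 of the 7 genes were called against H/R-DMSO: Nqo1, Gclc and Cat fell and Sod2 rose. Over all genes tested 23.1% were called, 13.1% higher and 9.97% lower. The median log2 fold change of the 7 genes was -0.048, beside -0.0058 over all genes, and the median size 0.21 beside 0.13. Of the 7 genes, 5 had libraries that did not overlap, as had 35.0% of all genes tested. This comparison and that of H/R share the H/R-DMSO libraries, so their values are given side by side and are not independent.

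**Figure D2:**
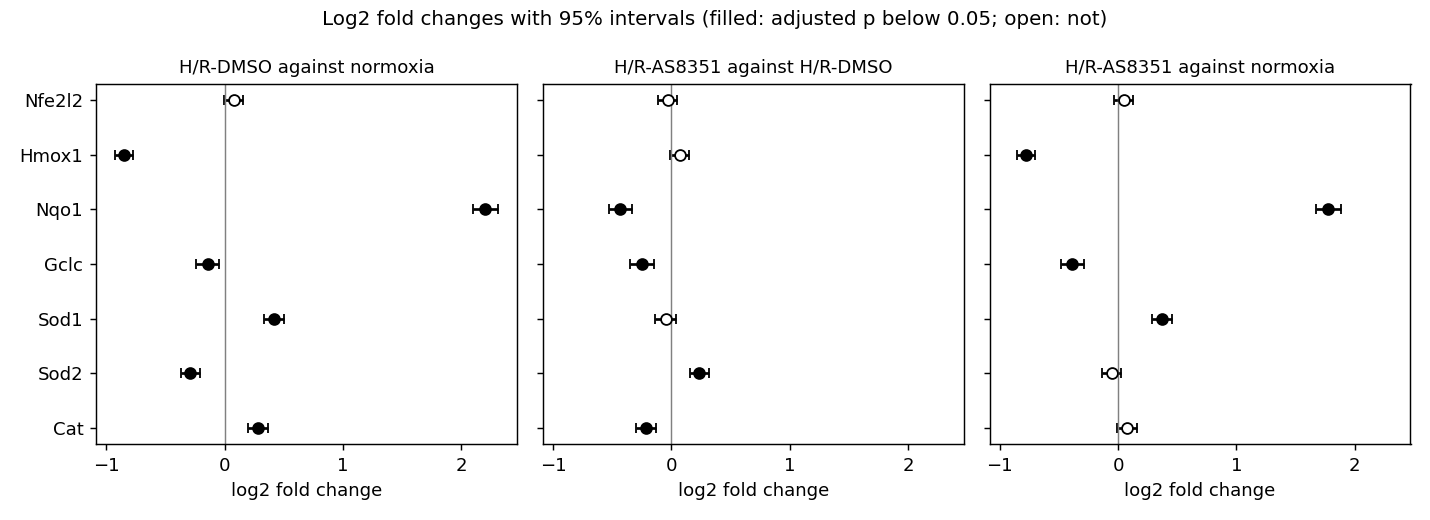
Log2 fold change of each gene (horizontal axis) with its 95% interval in the 3 comparisons, filled where the adjusted p was below 0.05. Nqo1 lies far to the right in both comparisons with normoxia (2.20 and 1.77) and to the left of 0 with AS8351 against H/R-DMSO (-0.43), while Gclc lies to the left with a filled point in all 3, though its H/R value turns to 0.021 with total count scaling and the uncalled Sod2 value against normoxia to 0.072.

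Among the targets, Nqo1 stood at 81.0, 83.0 and 86.1 CPM in the H/R-AS8351 libraries, below all H/R-DMSO libraries. It fell by 25.8% against H/R-DMSO (log2 fold change -0.43, SE 0.047, adjusted p = 1.28e-09 by edgeR), and 261 genes including Nqo1 were called with at least as large a decrease. It was still 3.42-fold above normoxia (log2 fold change 1.77, SE 0.052, adjusted p = 3.5e-28). For a scale between the groups, the mean of H/R-DMSO was set to 0% and that of normoxia to 100%. On it the H/R-AS8351 libraries stood at 32.9% ± 2.94 (SD, n = 3) for Nqo1 in CPM, and at 19.5% in log2 CPM. Each SD on this scale covers only the H/R-AS8351 libraries, with both means held fixed, and leaves out the spread of the other groups.

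Hmox1 stood at 170, 171 and 179 CPM with AS8351. The ranges did not overlap with those of H/R-DMSO, but the difference was small and not called (log2 fold change 0.070, SE 0.038, adjusted p = 0.201), with a 95% interval from -0.508% to 10.8%. Against normoxia Hmox1 was lower with AS8351 as well (log2 fold change -0.78, SE 0.038, adjusted p = 8.08e-21). On the scale between H/R-DMSO and normoxia it stood at 6.21% ± 3.61 (SD, n = 3), and at 3.76% with total count scaling. The place of Nqo1, at 32.9%, was not tested against it.

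Gclc stood at 57.1, 56.9 and 59.7 CPM with AS8351, the lowest of the 3 groups and apart from both. It fell by 15.7% against H/R-DMSO (log2 fold change -0.25, SE 0.049, adjusted p = 0.000129 by edgeR). It was lower than in normoxia too (log2 fold change -0.39, SE 0.048, adjusted p = 9.64e-09). Both calls held under every alternative tried, total count scaling and each left-out library included. Gclc was the only one of the 7 genes with a called fall with AS8351 and a fall after H/R, the latter with the limits given above. Its place on the scale between the other groups was -155% ± 22.5 (SD, n = 3), that is, beyond H/R-DMSO and away from normoxia, on the base of a small H/R change. The place was between -204% and -108% with single libraries left out, and with total count scaling, where the base is close to 0, it turned to 1151%.

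The dismutases parted after H/R. Sod1, the cytosolic enzyme, stood at 119, 109 and 112 CPM in normoxia and at 152, 153 and 149 CPM in H/R-DMSO. All H/R-DMSO libraries were higher, and Sod1 rose by 33.7% (log2 fold change 0.42, SE 0.043, adjusted p = 4.42e-11 by edgeR). Sod2, the mitochondrial enzyme, stood at 166, 172 and 164 CPM in normoxia and at 140, 135 and 136 CPM in H/R-DMSO, all of them lower. Sod2 fell by 18.2% (log2 fold change -0.29, SE 0.040, adjusted p = 6.36e-08). With total count scaling it was still called lower, by a smaller log2 fold change of -0.13 (adjusted p = 0.00633). The RefSeq rat gene table lists a pseudogene of Sod2, Sod2-ps1, and how reads that fit several places were counted is not given in the sources used here, so its counts may include some from that copy.

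With AS8351, Sod2 rose and Sod1 was not called. Sod2 stood at 162, 155 and 166 CPM, above all H/R-DMSO libraries, and rose by 17.8% (log2 fold change 0.24, SE 0.040, adjusted p = 1.27e-05 by edgeR). Its range overlapped that of normoxia, and the log2 fold change against normoxia was -0.053 (SE 0.040, adjusted p = 0.313), an interval from -8.84% to 1.95%. Scaled to the total count, that value turned to 0.072 (adjusted p = 0.138). Sod1 stood at 150, 151 and 138 CPM with AS8351, overlapping H/R-DMSO, and was not called (log2 fold change -0.048, SE 0.043, adjusted p = 0.478), with an interval from -8.87% to 2.71%. Against normoxia it was higher by 29.4% (log2 fold change 0.37, SE 0.043, adjusted p = 1.73e-09). On the scale between H/R-DMSO and normoxia, Sod2 stood at 80.4% ± 17.5 (SD, n = 3) and Sod1 at 12.9% ± 18.5, the latter 2.25% without replicate 3 of H/R-AS8351, whose Sod1 level was the lowest of the group. With total count scaling the place of Sod2 was 162%.

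The ratio of Sod2 to Sod1 counts followed from this. It was 1.48 ± 0.0952 (SD, n = 3) in normoxia, 0.905 ± 0.0214 after H/R with DMSO and 1.11 ± 0.0870 with AS8351, without overlap between any groups. The differences in mean log2 ratio were -0.71 after H/R, 0.29 with AS8351 against H/R-DMSO and -0.42 with AS8351 against normoxia. Each of these had p = 0.1 in the exact two-sided permutation test, the lowest possible here.

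**Figure D3:**
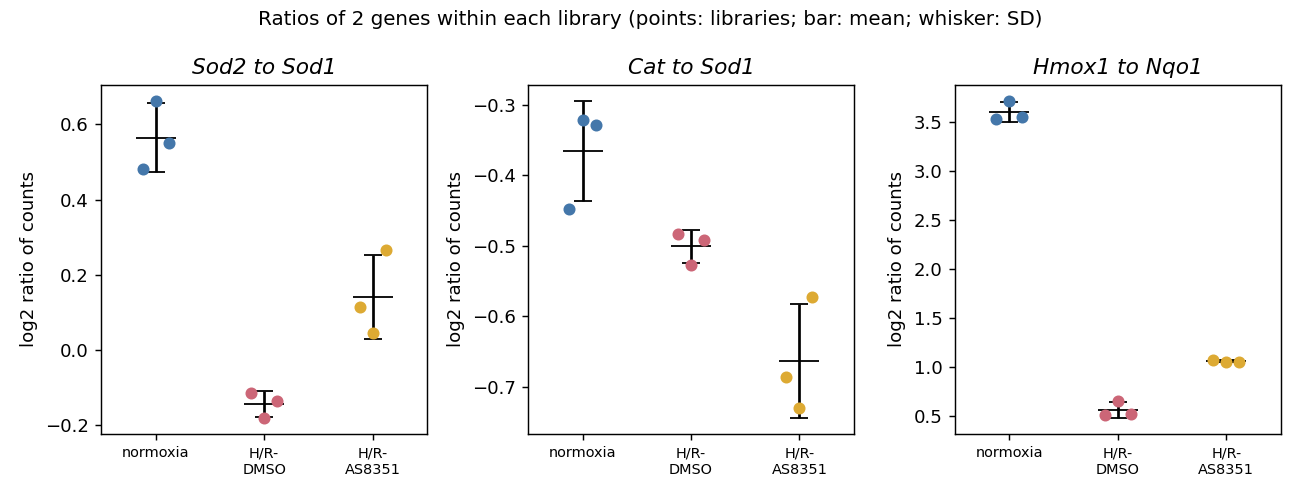
Log2 ratio of the counts of 2 genes within each library (vertical axis, with a range of its own in each panel), by group, with points for libraries, bars for means and whiskers for SD. The Sod2 to Sod1 and Hmox1 to Nqo1 ratios of H/R-AS8351 lie between the other groups, and the Cat to Sod1 ratio steps down from normoxia over H/R-DMSO to H/R-AS8351.

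Cat, which breaks down hydrogen peroxide, rose after H/R and fell with AS8351. It stood at 87.2, 87.0 and 88.9 CPM in normoxia, at 108, 106 and 106 CPM after H/R with DMSO, and at 93.3, 90.8 and 92.8 CPM with AS8351. The 3 groups did not overlap, with H/R-DMSO highest, and normoxia and H/R-AS8351 as close neighbours below it. The rise after H/R was 21.8% (log2 fold change 0.28, SE 0.042, adjusted p = 2.72e-07 by edgeR). With AS8351 the level fell by 13.6% (log2 fold change -0.21, SE 0.042, adjusted p = 0.000164). Against normoxia the H/R-AS8351 level was not called different (log2 fold change 0.074, SE 0.043, adjusted p = 0.173), with an interval from -0.835% to 11.7%. Scaled to the total count it was called higher than normoxia, by 0.20 (adjusted p = 0.00016), and the rise after H/R was 0.45. On the scale between H/R-DMSO and normoxia, Cat stood at 76.0% ± 6.88 (SD, n = 3), and at 59.3% with total count scaling.

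The ratio of Cat to Sod1 counts was 0.777 ± 0.0378 (SD, n = 3) in normoxia, 0.707 ± 0.0115 after H/R with DMSO and 0.632 ± 0.0358 with AS8351. The ratio was thus lower in each step, although Cat itself was higher in H/R-DMSO than in normoxia. The differences in log2 ratio were -0.14 after H/R and -0.16 with AS8351 against H/R-DMSO, each without overlap of the libraries and with p = 0.1 in the exact two-sided permutation test.

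Compared with normoxia, the H/R-AS8351 libraries had 2 of the 7 genes higher (Nqo1 and Sod1) and 2 lower (Hmox1 and Gclc), and Nfe2l2, Sod2 and Cat were not called. Over all genes tested 39.4% were called, 19.7% higher and 19.7% lower. Libraries did not overlap for 5 of the 7 genes and for 48.9% of all genes. Set side by side by role and with TMM scaling, the 4 genes of the Nfe2l2 group had 1 called higher and 2 lower after H/R, 0 higher and 2 lower with AS8351, and 1 higher and 2 lower against normoxia. The 3 superoxide and peroxide enzymes had 2 called higher and 1 lower after H/R, 1 higher and 1 lower with AS8351, and 1 higher and 0 lower against normoxia. After H/R, each of these sets held calls in both directions, Nqo1 against Hmox1 and Sod1 and Cat against Sod2, and these directions were the same under each scaling.

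**Figure D4:**
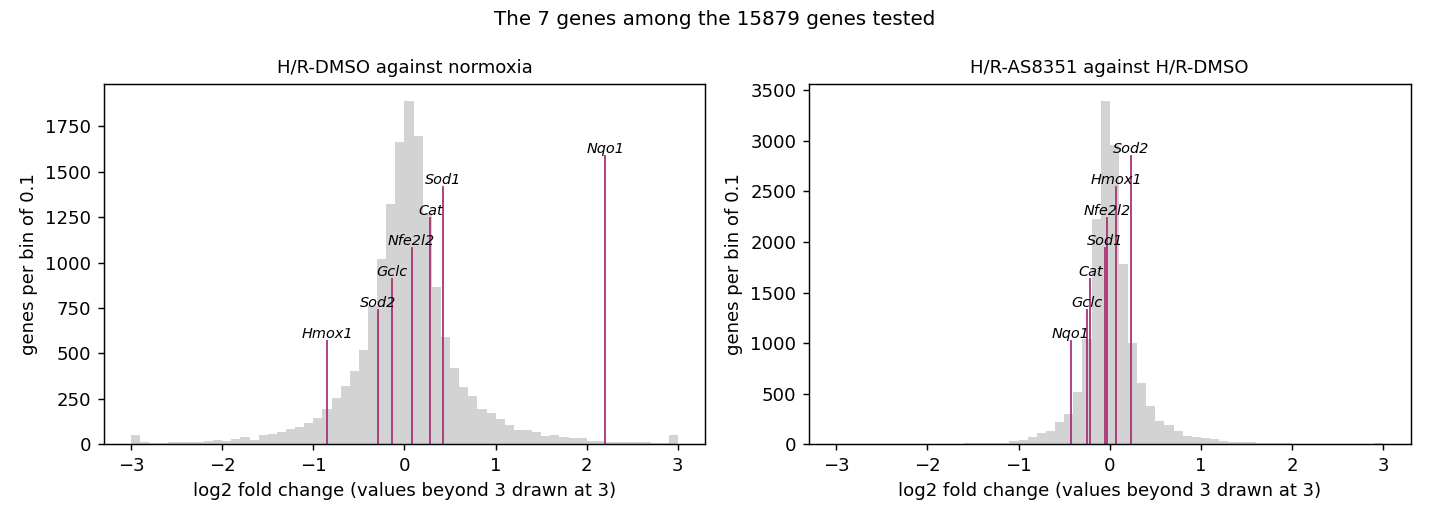
Number of genes (vertical axis) by log2 fold change (horizontal axis, in bins of 0.1) over the 15879 genes tested, with a line for each of the 7 genes, in H/R-DMSO against normoxia and in H/R-AS8351 against H/R-DMSO. Line heights carry no value. After H/R, Nqo1 at 2.20 lies in the right tail and Hmox1 at -0.85 in the left flank, and the other 5 lie between -0.29 and 0.42. With total count scaling Gclc changes from -0.14 to 0.021.

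The genes of most alike course were looked for by the Pearson correlation of log2 CPM over the 9 libraries, among 11258 other genes whose mean level was 5 CPM or more. These libraries form 3 groups, so the measure mainly reads the order and spacing of the group means, and no p is given. Many genes shared these courses: of the 11258, 621 had r above 0.95 with Nqo1 and 545 with Hmox1. Nqo1 was most alike to ENSRNOG00000019246 (r = 0.999), which went from 30.1 to 49.1 and 44.1 CPM over the 3 groups (normoxia first, AS8351 last), and to ENSRNOG00000021412 (r = 0.998), which went from 39.7 to 96.9 and 82.5 CPM. Hmox1 was most alike to ENSRNOG00000010765 (r = 0.998), with 998 CPM, 631 CPM and 650.2 CPM, and to ENSRNOG00000012002 (r = 0.997), with 567 CPM, 374 CPM and 381 CPM.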

How the data were processed

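The authors deposited raw counts per Ensembl gene identifier, 1 table per library. The submitters' processing notes list STAR 2.7.3a, Trimmomatic 0.39, DESeq2 1.32.0 and featureCounts 2.0.1, and the build rn6. The strand setting, the annotation release and how multiply mapping reads were treated are not given in the sources used, so genes that overlap others or have copies can share counts. Groups and replicate numbers come from the sample titles. Paired within groups, the libraries differed beyond sampling noise (chi-square per degree of freedom 3.89 to 8.72), so none was a copy of another. Each was entered in the fit as a replicate. The difference does not show that they came from separate cultures, and the spread may be technical.

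The analysis used R 4.3.3 and edgeR 4.0.16: filterByExpr (minimum count 10, total 15), TMM scaling, 1 quasi-likelihood fit of all 9 libraries with a mean per group, and Benjamini-Hochberg adjustment over 15879 genes (threshold 0.05). The SE is the log2 fold change over the square root of F. The procedure was also run on simulated counts with 200 changed genes. These were drawn from the same kind of count model with the spread fitted here, so the run does not check that model or spread. Alternatives were RLE, upper-quartile and total count scaling, other filters, DESeq2 1.42.0, limma-voom (limma 3.58.1), a fit of the 2 groups alone, a replicate block and left-out libraries.

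The 7 genes, the lists and the motifs were chosen with earlier results of these data known. The rule for named genes took all 7, then the 2 rising and 2 falling genes of most alike course. The RefSeq table (GRCr8, 47357 genes) gives an Ensembl identifier for 0 genes, so lists of other antioxidant genes and cell type markers, written by symbol, are not analysed here.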

Additional observations from a re-analysis of the deposited data

How the results depend on the processing

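Of 189 log2 fold changes of the 7 genes under settings other than left-out libraries, 184 had the same direction and the same call. The other 5 all came from total count scaling, which moves the median of all genes by 0.16, -0.037 and 0.12 in the 3 comparisons: after H/R, Nfe2l2 at 0.24 became called and Gclc turned to 0.021, and against normoxia with AS8351, Nfe2l2 at 0.17 and Cat at 0.20 became called and Sod2 turned to 0.072. It also moved the share of called genes that were higher from 52.1% to 74.3% after H/R, from 56.9% to 41.0% with AS8351 and, with AS8351 against normoxia, from 49.98% to 76.7%. Of 126 values with a library left out, 124 kept direction and side. The others were those of Gclc after H/R, which ranged from -0.17 to -0.12 and lost the call without replicate 2 of normoxia or replicate 3 of H/R-DMSO. All 90 counts of called genes, over all genes and over the 7, stayed within 1.5 times, the limit itself included. With total count scaling, 6 of the 7 rather than 4 were called with AS8351 against normoxia, which is at that limit. The ratios of 2 genes moved by less than 1 SD. The place between H/R-DMSO and normoxia moved to 19.5% for Nqo1 in log2 CPM, and with total count scaling to 162% for Sod2, 59.3% for Cat and 1151% for Gclc, which ranged from -204% to -108% with libraries left out. Replicate numbers gave no clear pairing: deviations from group means correlated between -0.023 and 0.042 for the same number and between -0.045 and 0.026 for others. A fit with the replicate block called 8539, 3940 and 6468 genes, beside 8364, 3671 and 6257 without it. Of the 7 genes, 6, 4 and 4 were called in both fits.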
